A study of Homo sapiens with 4 samples.

Results

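The genes described are 29 genes of cholesterol synthesis and sterol handling, all present among the 57820 genes of the deposited expression table. They were chosen by name for their function, with earlier results of these data known. They comprise 18 enzymes that build cholesterol from acetyl units, 4 genes of the sterol sensing machinery and 7 genes of sterol transport, storage and efflux. Levels were measured by RNA sequencing in A549, an established line of human lung adenocarcinoma that the series calls NRF2-activated (NRF2 is a transcription factor of the oxidative stress response). The series asks which transcripts in these cells depend on CEBPB, a transcription factor of the C/EBP family. A549 cells received CEBPB siRNA-1 (1 library), CEBPB siRNA-2 (1 library) or control siRNA (2 libraries). All cells were kept in medium with serum, which was renewed 24 h after transfection, and RNA was taken 24 h later. Each CEBPB siRNA was thus measured once, so its own spread is unknown. The labels do not say whether the controls were separate cultures, and p-values measure only the spread between these libraries, which may be technical.

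Cells make cholesterol from acetyl-CoA through mevalonate, squalene and lanosterol. When sterols in the endoplasmic reticulum are low, SCAP carries the membrane-bound factor SREBP2 (the product of SREBF2) to the Golgi, where it is cut and freed to switch on the genes of the pathway. When sterols are high, the INSIG proteins hold SCAP back, while excess cholesterol is stored as esters or exported under the control of the LXR nuclear receptors. SREBP2 binds sterol response elements and acts together with NF-Y, which binds CCAAT boxes near the start of many of these genes.

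The stretches before the genes were read for such letters. RefSeq windows (GRCh38.p14) of 300 bases, from 250 before to 50 after the start, were matched for 26 of the 29 genes, in 33 windows. A CCAAT box on either strand (CCAAT or ATTGG) lay in 21 of these windows, or 63.6%, against 34.6% of 35116 windows of all genes. At least 2 boxes lay in 14 windows, or 42.4%, against 10.8% of all windows. The windows of 1 gene can overlap, so they are not independent. The windows of all genes were not matched to these in expression or base content, and repeated windows were removed for the sterol genes only. Of 5 other motifs searched on both strands, the GC box GGGCGG lay in 93.9% of the windows against 45.0% of all windows, and the E-box CACGTG in 18.2% against 7.26%. The sterol response element was searched only as TCACNCCAC, which was found in 1 window, that of SREBF2 (3.03% against 1.13%). Inexact matches were not counted, so a window without this string may still hold another form. The C/EBP pattern TTGCNNAA was found in the windows of NSDHL, where it overlaps a CCAAT box, and SCAP (6.06% against 10.5%), and the C/EBP-ATF element TTGCATCA in 0 windows (0.866% of all). A match of letters is not a binding site, and these motifs were chosen after expression values had been seen.

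Windows of 4 genes are printed, all on the plus strand, with CCAAT boxes and matches to TCACNCCAC in capitals. MVK (chr12:109573544-109573843) and MSMO1 (chr4:165327419-165327718) are among the genes with the most boxes, while the synthesis genes CYP51A1 and PMVK have 0. SREBF2 (chr22:41832855-41833154) holds the TCACNCCAC match beside 1 box, and SOAT1 (chr1:179293547-179293846) is the gene of the set called lower in the authors' comparison.
MVK: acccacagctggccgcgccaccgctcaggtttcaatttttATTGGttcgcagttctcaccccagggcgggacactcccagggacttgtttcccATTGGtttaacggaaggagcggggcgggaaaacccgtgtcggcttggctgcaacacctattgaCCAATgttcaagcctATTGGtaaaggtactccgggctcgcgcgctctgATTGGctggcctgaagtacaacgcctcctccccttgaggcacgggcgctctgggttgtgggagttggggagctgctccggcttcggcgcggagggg
MSMO1: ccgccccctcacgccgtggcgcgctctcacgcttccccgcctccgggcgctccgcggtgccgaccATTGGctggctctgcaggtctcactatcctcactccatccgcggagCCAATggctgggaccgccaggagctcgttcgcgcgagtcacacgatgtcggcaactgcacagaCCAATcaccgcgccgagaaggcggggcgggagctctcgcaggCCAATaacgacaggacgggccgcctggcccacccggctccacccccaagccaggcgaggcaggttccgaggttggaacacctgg
SREBF2: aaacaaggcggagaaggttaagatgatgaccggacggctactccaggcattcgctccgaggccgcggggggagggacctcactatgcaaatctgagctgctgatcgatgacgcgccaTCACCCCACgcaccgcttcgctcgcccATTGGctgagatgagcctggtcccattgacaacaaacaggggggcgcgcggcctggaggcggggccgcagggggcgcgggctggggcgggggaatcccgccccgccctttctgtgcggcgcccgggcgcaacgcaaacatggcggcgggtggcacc
SOAT1: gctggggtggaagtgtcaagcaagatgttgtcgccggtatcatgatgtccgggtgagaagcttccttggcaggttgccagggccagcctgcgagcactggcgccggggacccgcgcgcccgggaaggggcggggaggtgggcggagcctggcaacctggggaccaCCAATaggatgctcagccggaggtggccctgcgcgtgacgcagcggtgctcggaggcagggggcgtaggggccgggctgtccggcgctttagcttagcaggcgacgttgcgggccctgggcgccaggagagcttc
MVK holds 5 boxes, MSMO1 4, SREBF2 1 and SOAT1 1.

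**Figure D1:**
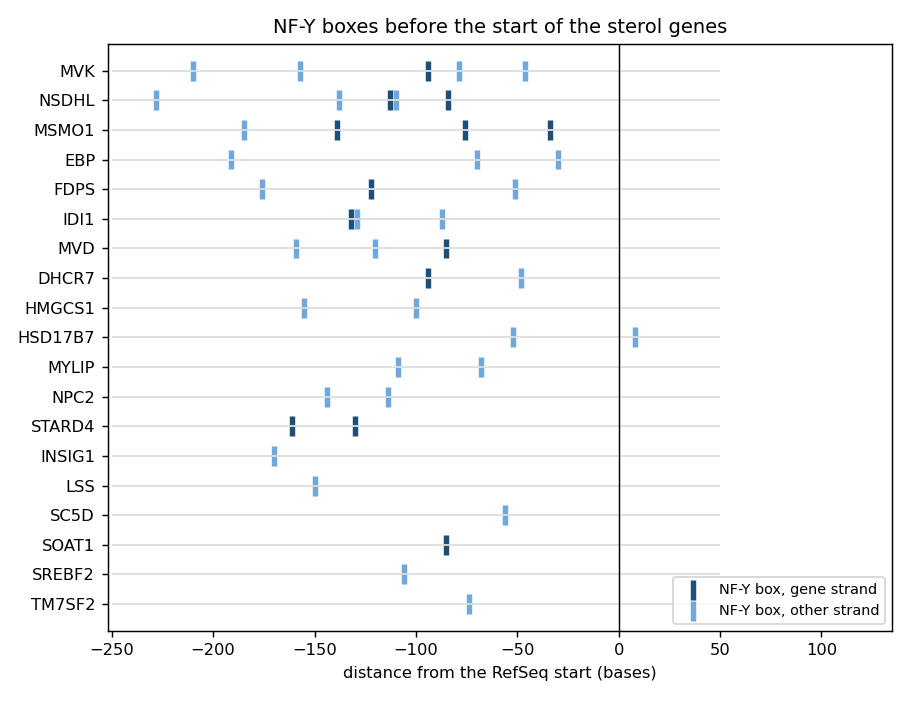
Position of CCAAT (NF-Y) boxes in the RefSeq window of each gene with at least 1, in bases from the start (x axis), with dark marks for the gene's strand and light marks for the other. For a gene with several windows the one with the most boxes is drawn. MVK and NSDHL have 5 boxes each, and 19 of 26 genes have at least 1.

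The libraries summed to 494066 FPKM with siRNA-1, 502651 with siRNA-2 and 513055 and 528606 in the controls. FPKM counts fragments per length of transcript, scaled by the depth of the library. Mitochondrial genes held 16.9% of FPKM with siRNA-1, 14.4% with siRNA-2 and 17.5% and 18.2% in the controls. Counts per library were not used here, and the authors' mean normalized counts sum to 8341083 per library, with 60.3 (CYP51A1) to 1350.0 (SQLE) for the genes of the set. The keratins KRT8, KRT18 and KRT7 were abundant in all libraries, while 4 of 4 leukocyte and 2 of 2 endothelial markers in the table were listed at 0. The alveolar markers SFTPB and NKX2-1 were listed at 0 in all libraries, and SFTPC at 0.91 FPKM in control 1 and 0 in the others. The epithelial markers summed to 3019 FPKM with siRNA-1, 3995 with siRNA-2 and 4268 and 5832 in the controls, a sum set mainly by KRT8, KRT18 and KRT7. KRT7 was higher with the siRNAs (1200 and 1162 FPKM, against 671 and 777 in the controls). KRT18 went the other way (568 and 1351 FPKM, against 1740 and 2502), by -1.87 with siRNA-1 and -0.63 with siRNA-2. It was called lower in the authors' deposited DESeq2 values (-1.213, adjusted p = 0.0317). KRT8 and EPCAM also lay below both controls with both siRNAs, and CDH1 overlapped the controls. The 4 fibroblast markers summed to 4.32 and 2.31 FPKM with the siRNAs and 0.717 and 0.573 in the controls, nearly all of it COL1A1. COL1A1 rose with siRNA-1 (1.67, limma adjusted p = 0.0188) and in the authors' deposited DESeq2 values (1.875, adjusted p = 0.0062). With siRNA-1, 12.7% of all genes were called in limma. The part of these shifts in the sterol results was not tested. In bulk RNA, fewer cells expressing a gene and less RNA per cell cannot be told apart.

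CEBPB itself (ENSG00000172216.4) was at 12.9 FPKM with siRNA-1 and 10.97 with siRNA-2, against 78.7 and 80.9 in the controls. The targeted gene was thus lower with both siRNAs, by a log2 change of -2.65 ± 0.17 (SE, n = 2 libraries per group; limma adjusted p = 0.0167). The call was lost when either control was left out (adjusted p = 0.461 without control 1 and 0.328 without control 2) and with no expression filter (0.262).

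Of the 29 genes, SOAT1 was the 1 with an adjusted p under 0.05 in the authors' deposited table, where it was lower. ABCA1 averaged under 1 FPKM and was not tested, which leaves 28. In the limma comparison of both CEBPB siRNA libraries with both controls, on log2(FPKM + 1) with p-values adjusted over all 14068 genes tested, 0 of 28 passed 0.05, where 0.235% of all genes did. At an unadjusted p under 0.05 there were 2, MVK and SOAT1, against 12.2% of all genes. This fit takes the 2 siRNAs as replicates, so the difference between them enters its spread and SE. Genes on which the siRNAs differ were therefore harder to call. The authors' DESeq2 comparison called 0 higher and 1 lower, against 4.14% of the genes it tested. Both siRNA libraries lay below both controls for 8 genes (MVK, MVD, IDI1, CYP51A1, NSDHL, EBP, SC5D and SOAT1), or 8 of 28 against 21.0% of all genes. They lay above both for MYLIP alone, against 23.5% of all genes, and overlapped the controls for 19. The median log2 change was -0.18, beside 0.00 for all genes tested. Control 1 minus control 2 had a median of 0.17 for the sterol genes, beside 0.049 for all genes tested.

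**Figure D2:**
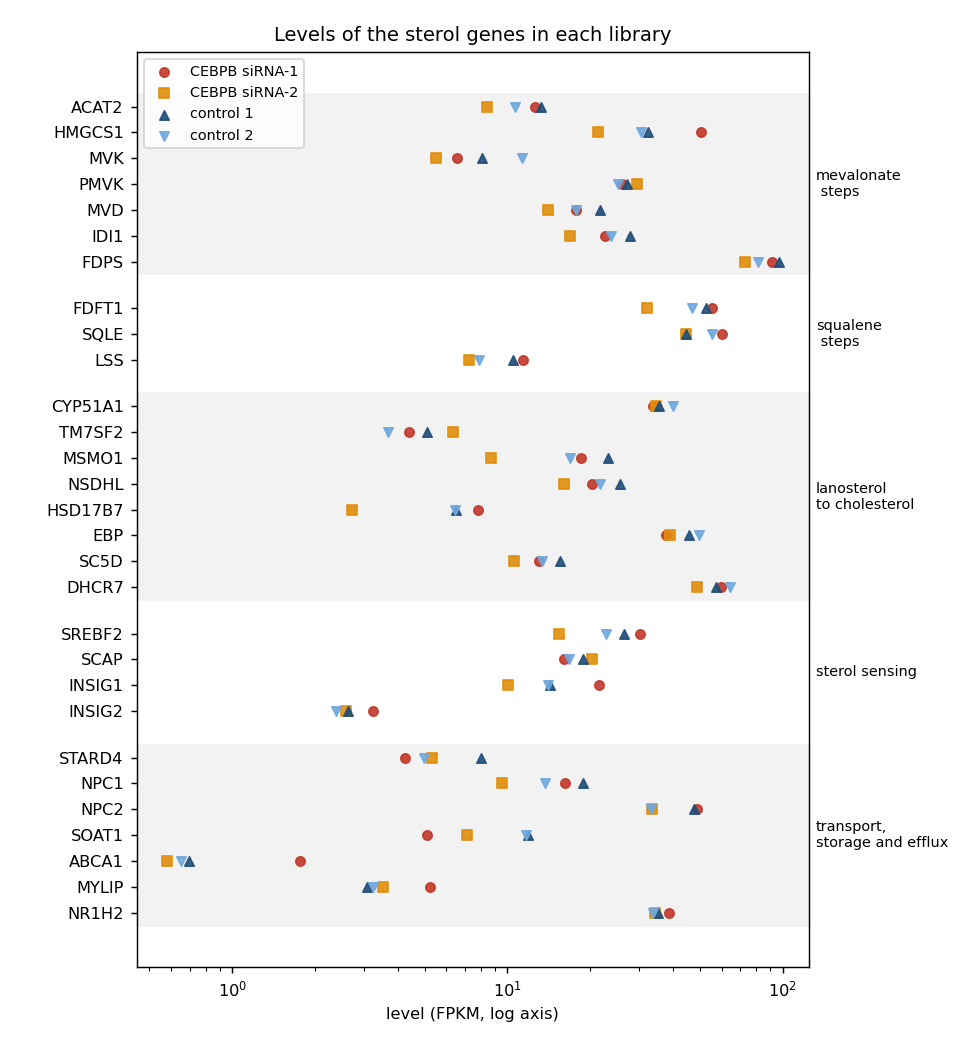
Level of each of the 29 genes in FPKM (log axis), 1 symbol per library, grouped by role. FDPS was the most abundant, at 91.8 and 72.7 FPKM with the siRNAs and 96.8 and 81.1 FPKM in the controls, and ABCA1 the least.

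SOAT1 (ENSG00000057252.8) encodes the enzyme of the endoplasmic reticulum that joins cholesterol to a fatty acid for storage in lipid droplets. It was at 5.12 FPKM with siRNA-1 and 7.13 with siRNA-2, against 11.9 and 11.7 in the controls. Both siRNA libraries were therefore at 43.5% and 60.5% of the control mean, and the groups did not overlap. The log2 change was -0.86 ± 0.22 (SE; limma adjusted p = 0.223). It was -0.96 (SE 0.265, adjusted p = 0.0105) in the authors' deposited table. Against the controls, siRNA-1 alone gave -1.06 ± 0.18 (limma adjusted p = 0.0274) and siRNA-2 alone -0.65 ± 0.18 (adjusted p = 0.207). These values come from a fit with 3 groups, which has the difference between the controls as its only residual and takes each siRNA library to vary as the controls do. The difference between the siRNAs, -0.41 ± 0.20, did not pass (adjusted p = 0.314).

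The siRNA libraries were also read apart. Compared with the controls, siRNA-1 gave a median log2 change of 0.01 (all genes -0.03) and siRNA-2 one of -0.36 (all genes 0.04). With siRNA-2, 19 of 28 genes lay below both controls (32.1% of all genes) and 4 above both (42.6%). With siRNA-1, 10 lay below both (44.1% of all genes) and 11 above both (38.0%). The level was higher with siRNA-1 than with siRNA-2 for 21 of 28 genes, against 43.7% of all genes. For 6 genes siRNA-1 lay above both controls and siRNA-2 below both, against 7.18% of all genes. In the 3-group fit siRNA-1 called 2 of 28 genes, HMGCS1 higher and SOAT1 lower, where 12.7% of all genes were called. siRNA-2 called 0 of 28, where 0.49% of all genes were called, and 11 had an unadjusted p under 0.05, against 14.7% of all genes. Between the siRNAs 0 of 28 passed, against 0.441% of all genes, and 7 had an unadjusted p under 0.05, a share near the 22.4% of all genes. Both comparisons with the controls share the same 2 control libraries.

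**Figure D3:**
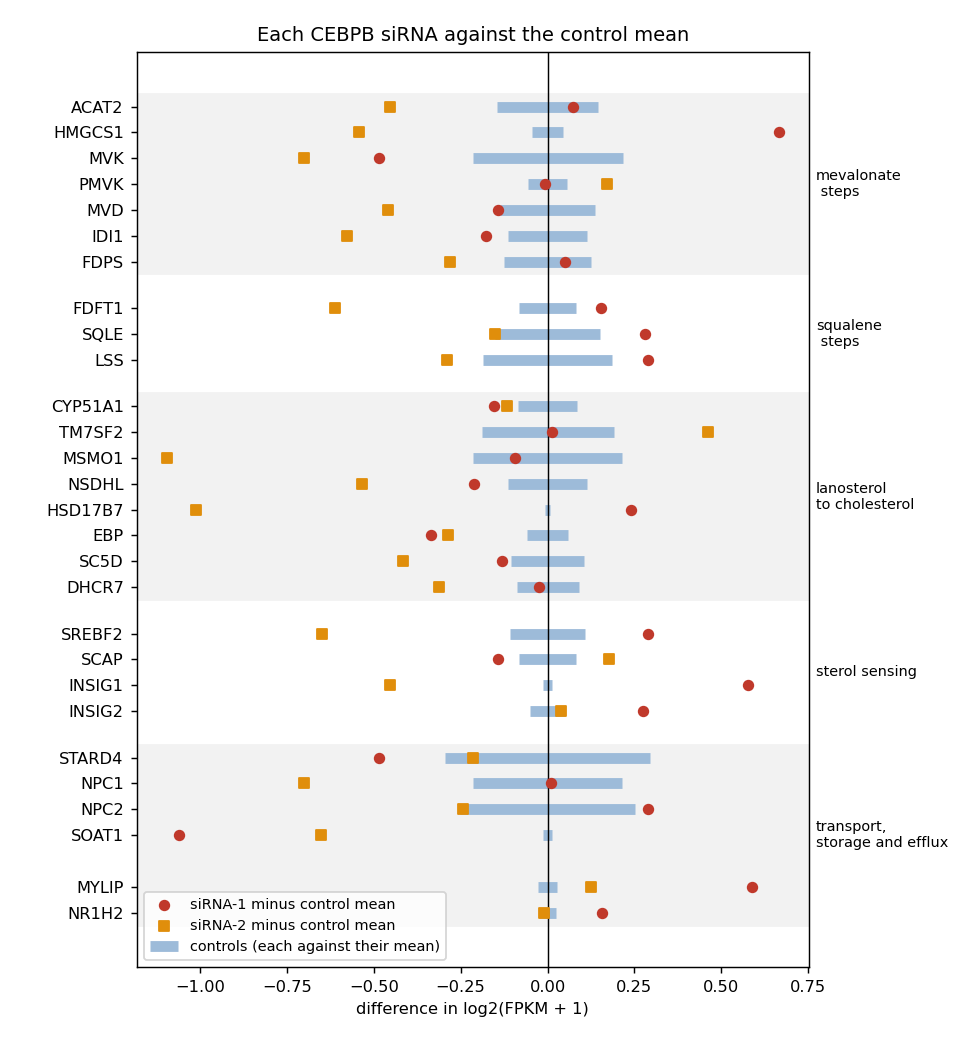
Difference in log2(FPKM + 1) from the control mean for siRNA-1 (circles) and siRNA-2 (squares), for the 28 genes tested. The blue bar spans the 2 controls around their mean. The siRNA-2 squares lie mostly left of 0, with a median of -0.36, and the siRNA-1 circles on both sides, with a median of 0.01.

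**Figure D4:**
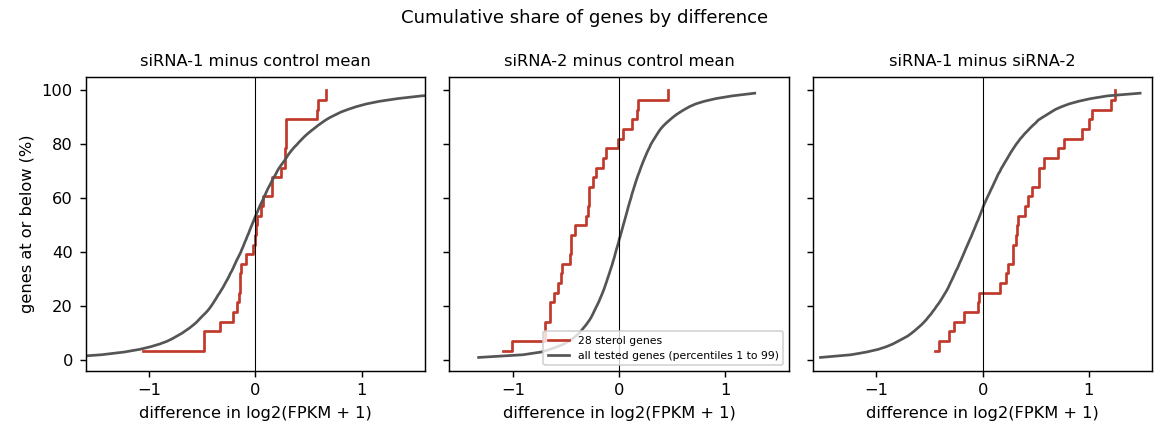
Cumulative share of genes (y axis, %) by difference in log2(FPKM + 1), for the 28 sterol genes and for all 14068 tested genes (percentiles). For siRNA-1 the medians are 0.01 and -0.03 and the quartiles of the sterol genes (-0.15 and 0.28) are closer together than those of all genes (-0.34 and 0.29). The sterol curve lies left of that of all genes for siRNA-2 (median -0.36 against 0.04) and right of it for siRNA-1 minus siRNA-2 (median 0.33 against -0.06).

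The mevalonate steps include the gene with the smallest p between the siRNAs. HMGCS1 (ENSG00000112972.10), the synthase that makes HMG-CoA, was at 50.5 FPKM with siRNA-1 and 21.3 with siRNA-2, against 32.5 and 30.5 in the controls. It rose with siRNA-1, by 0.67 ± 0.14 (limma adjusted p = 0.0455), a call that was lost with a smaller pseudocount. With siRNA-2 its log2 change was -0.54 ± 0.14 (adjusted p = 0.190). The difference between the siRNAs was 1.21 ± 0.16, with an adjusted p of 0.0596. MVK, mevalonate kinase, was at 6.56 and 5.51 FPKM with siRNA-1 and siRNA-2, against 8.11 and 11.3 in the controls. Both siRNA libraries were lower, but the controls differed by more than the siRNA libraries did, and the log2 change of -0.59 ± 0.23 did not pass (adjusted p = 0.391). MVD, the decarboxylase, was at 17.7 and 14.1 FPKM with the siRNAs, against 21.8 and 17.8 in the controls. IDI1, the isomerase of isopentenyl diphosphate, was at 22.7 and 16.9 FPKM with the siRNAs, against 27.99 and 23.8 in the controls. In both genes the siRNA-1 library lay just under the lower control. FDPS, which makes farnesyl diphosphate, and the thiolase ACAT2 (12.6 and 8.40 FPKM with the siRNAs, against 13.2 and 10.6 in the controls) overlapped the controls. PMVK, phosphomevalonate kinase, was at 26.1 and 29.7 FPKM with the siRNAs, against 27.3 and 25.2 in the controls. FDPS has 8 annotated pseudogene copies. ACAT2, HMGCS1, MVK, IDI1 and FDPS overlap annotated genes on the other strand, as do several genes of the other roles. The library kit keeps strand, but whether the counting used it is not given in the sources used here.

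The squalene steps overlapped the controls in all 3 genes. FDFT1, squalene synthase, was at 55.4 FPKM with siRNA-1 and 32.1 with siRNA-2, against 52.6 and 46.8 in the controls. Its siRNA difference of 0.77 ± 0.17 did not pass (adjusted p = 0.0965). SQLE, squalene epoxidase, was at 60.4 and 44.5 FPKM with the siRNAs, against 44.5 and 55.2 in the controls. LSS, which closes the ring to lanosterol, was at 11.4 and 7.27 FPKM with the siRNAs, against 10.5 and 7.90 in the controls. All 3 genes were higher with siRNA-1 than with siRNA-2, by a median of 0.58 on the log2 scale.

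From lanosterol on, 7 of 8 genes lay below both controls with siRNA-2 (32.1% of all genes did). With siRNA-1, 4 lay below both and 1 above both (44.1% and 38.0% of all genes). MSMO1, a sterol methyl oxidase, was at 18.5 FPKM with siRNA-1 and 8.74 with siRNA-2, against 23.1 and 16.9 in the controls. Only the siRNA-2 library lay outside the controls, at -1.10 ± 0.23 (limma adjusted p = 0.131). HSD17B7, a ketosteroid reductase, was at 7.84 FPKM with siRNA-1 and 2.72 with siRNA-2, against 6.53 and 6.45 in the controls. Its change with siRNA-2 was -1.01 ± 0.19 (adjusted p = 0.113) and the difference between the siRNAs 1.25 ± 0.22 (adjusted p = 0.0768). HSD17B7 has 2 pseudogene copies, of which HSD17B7P2 was at 2.94 and 1.35 FPKM with the siRNAs and 2.30 and 1.23 in the controls, so its level is uncertain. In the authors' deposited table its change was -0.02, where FPKM gave -0.39. EBP, the sterol isomerase, was at 37.6 and 38.9 FPKM with the siRNAs, against 45.7 and 49.7 in the controls. Its siRNA libraries were alike and both below the controls, with a log2 change of -0.31 ± 0.16 (adjusted p = 0.508). NSDHL, a sterol dehydrogenase, was at 20.2 and 16.0 FPKM with the siRNAs, against 25.6 and 21.7 in the controls. SC5D, the sterol desaturase, was at 13.1 and 10.5 FPKM with the siRNAs, against 15.5 and 13.3 in the controls. CYP51A1, the lanosterol demethylase, was at 33.8 and 34.7 FPKM with the siRNAs, against 35.5 and 40.1 in the controls. The groups of these 3 genes did not overlap, though by little. DHCR7, the last reductase of one branch, was at 59.6 and 48.7 FPKM with the siRNAs, against 57.1 and 64.7 in the controls. TM7SF2, a sterol reductase, was at 4.39 and 6.36 FPKM with the siRNAs, against 5.09 and 3.68 in the controls. CYP51A1 has 3 pseudogene copies and overlaps AC000120.2 and AC000120.3 on its own strand. Its log2 change was -0.14 in FPKM and -0.38 in the authors' deposited table, which gives it the lowest mean count of the set (60.3), so its level is uncertain. TM7SF2 overlaps VPS51 on its own strand. Over the 18 enzymes of the set the levels summed to 550.0 FPKM with siRNA-1 and 419 with siRNA-2, against 549.5 and 527 in the controls.

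Among the sensing genes, SREBF2 and INSIG1 were also higher with siRNA-1 than with siRNA-2. SREBF2, which encodes SREBP2, was at 30.3 FPKM with siRNA-1 and 15.4 with siRNA-2, against 26.6 and 22.8 in the controls. The siRNA-1 library lay above both controls and the siRNA-2 library below both, a difference of 0.94 ± 0.19 (limma adjusted p = 0.0897). INSIG1, which holds SCAP back and is itself a target of SREBP2, was at 21.6 FPKM with siRNA-1 and 10.1 with siRNA-2, against 14.3 and 14.01 in the controls. The difference between the siRNAs was 1.03 ± 0.18 (adjusted p = 0.0757), with 0.58 ± 0.16 for siRNA-1 (adjusted p = 0.0797) and -0.45 ± 0.16 for siRNA-2 (adjusted p = 0.298). SCAP, the escort of SREBP2, was at 16.0 and 20.3 FPKM with the siRNAs, against 18.9 and 16.8 in the controls. INSIG2 was at 3.24 and 2.59 FPKM with the siRNAs, against 2.62 and 2.37 in the controls. SCAP, unlike SREBF2, was lower with siRNA-1 than with siRNA-2, a difference that did not pass (adjusted p = 0.378).

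**Figure D5:**
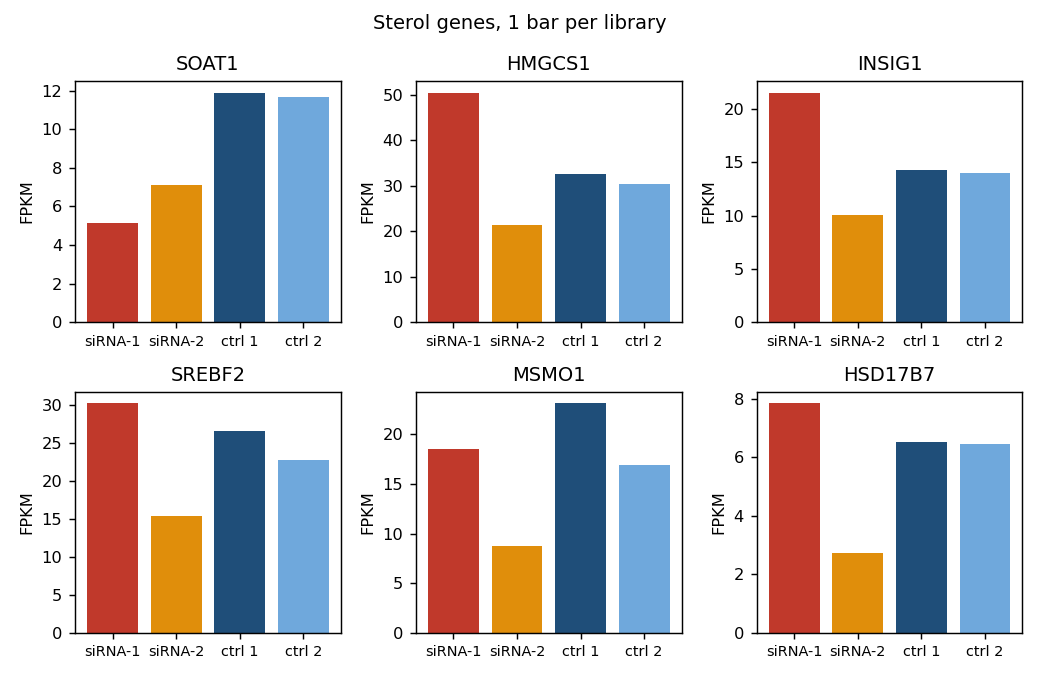
Level in FPKM of SOAT1, HMGCS1, INSIG1, SREBF2, MSMO1 and HSD17B7, 1 bar per library. SOAT1 is lower in both siRNA libraries (5.12 and 7.13 FPKM against 11.9 and 11.7 in the controls), while the other genes are higher with siRNA-1 than with siRNA-2. These genes were chosen after their values were seen.

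Of the other transport and efflux genes, NPC1, which moves cholesterol out of lysosomes, was at 16.2 FPKM with siRNA-1 and 9.52 with siRNA-2, against 18.8 and 13.7 in the controls. Its change with siRNA-2 was -0.70 ± 0.23 (limma adjusted p = 0.277). Its lysosomal partner NPC2 was at 48.8 and 33.5 FPKM with the siRNAs, against 47.5 and 33.2 in the controls, so the controls spanned nearly the same range. STARD4, a sterol carrier of the cytosol, was at 4.24 and 5.33 FPKM with the siRNAs, against 8.01 and 4.98 in the controls. MYLIP, an LXR-induced ubiquitin ligase that removes lipoprotein receptors, was at 5.25 and 3.54 FPKM with the siRNAs, against 3.08 and 3.24 in the controls. Its change with siRNA-1 was 0.59 ± 0.21 (adjusted p = 0.135). NR1H2, which encodes LXR beta, was at 38.6 and 34.3 FPKM with the siRNAs, against 35.1 and 33.9 in the controls. ABCA1, the cholesterol exporter induced by LXR, was at 1.76 FPKM with siRNA-1 and 0.580 with siRNA-2, against 0.699 and 0.652 in the controls. The siRNA-1 library lay above both controls and the siRNA-2 library slightly below both. The change of ABCA1 for both siRNAs together was 0.78 in the authors' deposited table (adjusted p = 0.756).

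Neighbouring sterol genes were read from 6 further lists. Beside the counts stand the shares of all genes: 0.235% passed the limma comparison of both siRNAs, 12.2% had an unadjusted p under 0.05 in it, 12.7% passed with siRNA-1 and 4.14% passed in the authors' table. Of 6 tested genes of lipoprotein receptors and uptake 0 passed in the limma comparison of both siRNAs, and 3 had an unadjusted p under 0.05 (12.2% of all genes). LRP1, a large endocytic receptor, was at 7.62 and 5.58 FPKM with the siRNAs, against 3.25 and 3.12 in the controls. It rose in the authors' deposited table (1.03, adjusted p = 0.00482) and with siRNA-1 (1.04, limma adjusted p = 0.038). LIPA, the lysosomal acid lipase, was at 7.03 FPKM with siRNA-1 and 21.3 with siRNA-2, against 19.6 and 20.1 in the controls. It fell with siRNA-1 (-1.38, limma adjusted p = 0.0131). Of the 6 genes, siRNA-1 thus called 1 higher and 1 lower, where 12.7% of all genes were called.

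Of 11 tested other sterol and isoprenoid enzymes 0 passed in limma, with either siRNA or both, or in the authors' table, and 1 had an unadjusted limma p under 0.05, near the 12.2% of all genes. GGPS1, which makes geranylgeranyl diphosphate, was that gene, at 13.2 and 12.6 FPKM with the siRNAs and 8.70 and 9.40 in the controls (log2 change 0.47, adjusted p = 0.373).

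Of 12 genes of SREBP cleavage and sterol-regulated turnover 0 passed in limma, with either siRNA or both, or in the authors' table, and 2 had an unadjusted limma p under 0.05, also near the 12.2% of all genes. MMAB, a cobalamin enzyme gene that overlaps MVK on the other strand, had the smallest p, at 5.19 and 6.19 FPKM with the siRNAs and 10.9 and 7.93 in the controls. Of 14 tested genes of sterol transfer and esters 0 passed in the limma comparison of both siRNAs, and 4 had an unadjusted p under 0.05 (12.2% of all genes). CAV1, which coats caveolae, was at 288 FPKM with siRNA-1 and 144 with siRNA-2, against 60.0 and 65.7 in the controls. It rose in the authors' deposited table (1.75, adjusted p = 1.87e-05) and with siRNA-1 (2.18, limma adjusted p = 0.00642), but not in the limma comparison of both siRNAs (1.68, adjusted p = 0.156). OSBPL5 (1.16) and the ester hydrolase NCEH1 (0.66) also rose with siRNA-1 (limma adjusted p = 0.04 and 0.0498), so 3 of 14 did, where 12.7% of all genes were called. Of 10 tested LXR, oxysterol and efflux genes 0 passed in the limma comparison of both siRNAs or in the authors' table, and 3 had an unadjusted limma p under 0.05 (12.2% of all genes). RXRA, the partner of LXR, fell with siRNA-1 (-0.89, adjusted p = 0.0492), 1 of 10 where 12.7% of all genes were called. NR1H3, which encodes LXR alpha, was at 7.87 and 10.1 FPKM with the siRNAs, against 14.4 and 13.5 in the controls.

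Of 11 tested SREBP targets in fatty acid synthesis 0 passed in the limma comparison of both siRNAs, and 5 had an unadjusted p under 0.05 (12.2% of all genes). SCD, the stearoyl-CoA desaturase, was at 126 and 105 FPKM with the siRNAs, against 188 and 222 in the controls, and fell in the authors' deposited table (-0.83, adjusted p = 0.0214). With siRNA-1, ACLY rose (0.74) and FASN (-0.90), FADS2 (-0.70) and ACSL3 (-0.82) fell, with limma adjusted p-values of 0.0194 to 0.0397, where 12.7% of all genes were called. The median of the list was -0.39 for both siRNAs, beside -0.18 for the 28 sterol genes and 0.00 for all genes. With siRNA-2 alone the list median was -0.37, beside -0.36 for the sterol genes, and 8 of 11 lay below both controls. The drop with siRNA-2 was thus not particular to the sterol genes. With siRNA-1 the list median was -0.27, beside 0.01. The other lists had siRNA-2 medians from -0.16 to 0.10.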

How the data were processed

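Total RNA of 4 A549 libraries was read as 76-base single-end reads from a strand-specific kit, per the labels' protocols. The submitters' processing notes name DESeq2 1.26.0, HTSeq 0.13.5, StringTie 2.1.4, STAR 2.7.0d and the build hg19, without saying what each was used for. The deposited table gives 1 value per library for 57820 genes. These deposited values were taken as FPKM made by the authors before deposit: the file headers name no unit, the column names are those of StringTie, and the columns sum to unequal totals. Per the file headers, the other deposited columns are a DESeq2 table: the signal is the authors' mean normalized count, followed by the authors' log2 fold change and standard error, a Wald score, and p-values, raw and adjusted. These are quoted and were not recomputed.

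Here log2(FPKM + 1) was fitted with limma (3.58.1) with an intensity trend for the 14068 genes averaging at least 1 FPKM, adjusted by Benjamini-Hochberg, with 0.05 as the threshold. The 2-group fit had 2 residual and 3.61 prior degrees of freedom. Each siRNA was compared in a 3-group fit (1 residual and 3.92 prior degrees of freedom). An exact two-sided permutation test of 2 libraries against 2 cannot go below p = 0.333. Changes on this scale understate those of low genes. GENCODE 29 served for overlaps and copies. The fit was tested on simulated data.

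The members, lists, motifs and promoters were chosen with earlier results of these data known. Members are all described. Of each other list, genes past the threshold in a fit or in the authors' table are named, else the one with the smallest p; the rule set up to 4 per list, and further genes named were chosen after their values were seen. Some genes of these other lists are not reported here and are outside the counts given for the lists.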

Additional observations from a re-analysis of the deposited data

How the results depend on the processing

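With 1 library per siRNA, precision is limited by the number of libraries, and depth per library was not used here. Against 33 genes called, 0 passed with no expression filter (2438 at an unadjusted p under 0.05), 971 in the 3-group fit and 0 to 1764 when 1 library was left out: 0 without control 1, 0 without control 2, 72 without siRNA-1 and 1764 without siRNA-2. Leaving out a siRNA library leaves 1 sample in that group, taken to vary as the controls do. Against 0 sterol genes called, 1 passed in the 3-group fit (SOAT1, adjusted p = 0.0394), 1 in the authors' deposited table and 0 to 2 when 1 library was left out, with HMGCS1 and SOAT1 called without siRNA-2. Between the siRNAs, 0 sterol genes passed, but 6 did with a filter of 5 FPKM (FDFT1, HMGCS1, HSD17B7, INSIG1, MSMO1 and SREBF2) and 3 with median-of-ratios scaling (HMGCS1, HSD17B7 and INSIG1). The share of all genes called was 13.6% and 2.52% there, against 0.441%. With no expression filter 0 sterol genes passed between the siRNAs, where 7.01% of all genes did. Upper-quartile scaling and a fit with no trend called 0 genes between the siRNAs. The cause of these differences between settings was not tested. The sterol median with siRNA-2 was -0.32 without control 1 and -0.49 without control 2, and that with siRNA-1 was 0.15 and -0.07, on either side of 0. With both siRNAs it was -0.08 without control 1, -0.25 without control 2, -0.36 without siRNA-1 and 0.01 without siRNA-2. The same-numbered libraries share only a number (correlation of their deviations 0.0754 over 14068 genes), and with a replicate block 25 genes and 0 sterol genes passed.

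The sign of 14 of the 28 genes changed when 1 library was left out. The lowest and highest log2 changes were -0.454 and 0.073 for ACAT2, -0.54 and 0.67 for HMGCS1, -0.008 and 0.171 for PMVK, -0.28 and 0.05 for FDPS, -0.61 and 0.16 for FDFT1, -0.15 and 0.28 for SQLE, -0.29 and 0.29 for LSS, -1.01 and 0.24 for HSD17B7, -0.65 and 0.29 for SREBF2, -0.14 and 0.18 for SCAP, -0.45 and 0.58 for INSIG1, -0.70 and 0.01 for NPC1, -0.24 and 0.29 for NPC2 and -0.011 and 0.156 for NR1H2. LSS was at 0.014 with upper-quartile scaling. Alternatives for siRNA-1 alone were chosen after seeing the data. There SOAT1 was not called with no filter (adjusted p = 0.0852), and HMGCS1 was not called with a pseudocount of 0.1 (0.053), no filter (0.138) or no trend (0.0872).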
